A study of Homo sapiens with 6 samples.

Results

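The axon guidance ligands and receptors were followed in RNA-seq libraries of HCT-116 cells, an established human colon carcinoma line. The members are 58 genes named for their family (Slit, Robo, semaphorin, plexin, netrin, netrin receptor, Eph and ephrin), matched by symbol among the 60546 gene identifiers of the table. They comprise 30 ligand genes and 28 receptor genes, and the rule uses names, not measured values. HCT-116-PMSCV-GOLPH3 cells (3 libraries) are described as carrying a GOLPH3 cDNA in the PMSCV vector, delivered by lentivirus, and HCT-116-PMSCV-Vector cells (3 libraries) as carrying the same vector without it. GOLPH3 codes for a Golgi membrane protein that binds phosphatidylinositol 4-phosphate. Both groups were cultured in DMEM with fetal bovine serum, and the labels give wild type as the genotype of every sample. The samples of a group came from different generations of 1 stable line, so the tests measure the spread between cultures of that line and not between lines made independently. The titles also hold a number after the letter P, which was 8, 12 and 13 in GOLPH3 libraries 1, 2 and 3, and 12, 11 and 13 in Vector libraries 1, 2 and 3. The sources used here do not say what it stands for.

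Axon guidance molecules steer growing nerve fibres by attraction and repulsion, and epithelial cells use the same molecules to control adhesion and movement. Slits are secreted proteins that repel cells through Robo receptors. Semaphorins act through plexins, with neuropilins as co-receptors for most of the secreted class 3 members. Netrins attract through DCC and neogenin and repel through UNC5 receptors. Ephrins are anchored in the membrane and signal to Eph receptor tyrosine kinases on the neighbouring cell, and the ephrin-bearing cell receives a signal in return. In the intestinal crypt, Eph receptors and ephrins help to keep cells in their positions.

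Between 15708846 and 21900764 reads were counted per library, and the values are normalized reads, that is, read counts divided by 1 factor per library. A count of 3 reads, taken as the limit of detection, was 2.47 to 3.29 normalized reads. The GOLPH3 transcript itself was counted at 1630, 1272 and 1383 normalized reads where the label was GOLPH3 and at 1968, 1892 and 1472 where it was Vector. It was therefore not higher in the libraries labelled GOLPH3 (log2 fold change -0.31 ± 0.27 SE, adjusted p = 0.609, limma), which goes against their label, and every direction below is given for the libraries as labelled. IRS4, NEFM, UCHL1 and HAND1, markers of HEK293-like cells, also had reads in the Vector libraries alone, whereas PAX2, from the same list, had reads in all 6 libraries. Whether labels were exchanged or the cultures differed in origin was not tested. Of 14 colon epithelial markers, EPCAM, CDH1, KRT8, KRT18, KRT19 and CDX2 were well above the limit in every library, whereas KRT20, CDX1 and TFF3 were at or under 3 reads in all 6. The remaining markers, VIL1, LGALS4, CEACAM5, CEACAM6 and MUC2, were near the limit, with no more than 19 reads in any library. The values are relative to the whole RNA of a culture, so fewer cells of a type and less RNA per cell cannot be told apart.

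Of the 58 members, 55 reached 1 normalized read in at least 3 libraries and were tested. A total of 12 were lower and 3 were higher in the GOLPH3 libraries at an adjusted p under 0.05, and 40 did not pass. Over all 26536 genes tested with limma, 1346 passed, or 5.07% in either direction, 0.953% higher and 4.12% lower. Among the members tested, 27.3% passed. ROBO2, UNC5C and SEMA6D, which were under 1 normalized read in every GOLPH3 library, entered the test only through the Vector group. SLIT3, ROBO1, EPHA3, EPHA7 and EPHB1 also needed the Vector group, as each was under 1 normalized read in at least 1 GOLPH3 library. The counts of members called or at the limit are therefore given as a description. In 24 members the groups did not overlap, 9 higher and 15 lower, and over all genes tested these shares were 22.0% in either direction, 9.20% higher and 12.8% lower. The median log2 fold change was 0.10 over the members and 0.016 over all genes. The count of 15 was 8 without Vector library 1 and 7 without Vector library 3 (11 and 8 where a value of 1 was required in 2 libraries), and DESeq2 on the recovered reads called 23. In all, 7 tested members (SLIT3, ROBO1, ROBO2, SEMA6D, UNC5C, EPHA3 and EPHA7) were at or under 3 reads in every GOLPH3 library and above 3 reads in every Vector library, a pattern that 2.59% of all genes tested showed. No tested member showed the opposite pattern, and its share over all genes tested was not computed. The members not tested were SEMA5A, with reads in Vector library 3 alone (3.43 normalized reads), DCC, with a single read in GOLPH3 library 1, and UNC5D, with no read in any library.

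**Figure D1:**
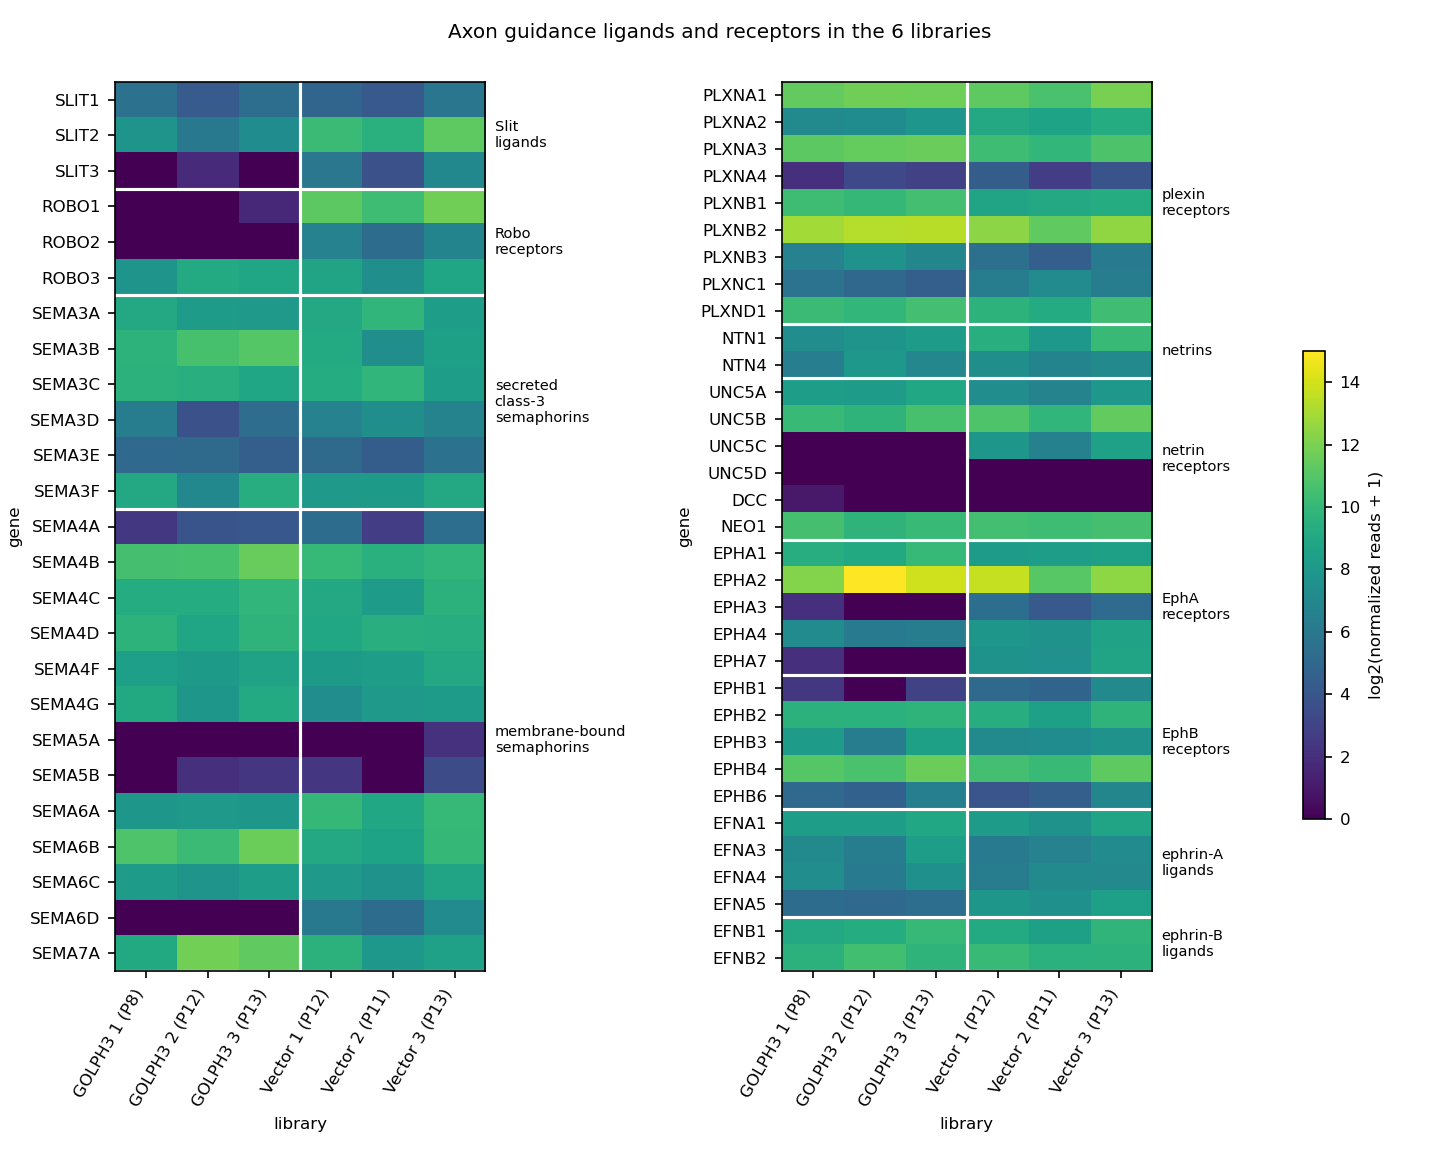
Level of the 58 members in the 6 libraries, as log2(normalized reads + 1), with genes in rows by role and libraries in columns; the white vertical line separates the GOLPH3 from the Vector libraries. The dark cells in the left columns of ROBO1, ROBO2, SLIT3, SEMA6D, UNC5C, EPHA3 and EPHA7 are the 7 members at or under 3 reads in every GOLPH3 library, and EPHA2 and PLXNB2 are the brightest rows.

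Robo receptors held the member with the lowest fitted fold change. ROBO1, the main receptor for SLIT2 in many tissues (ENSG00000169855, chr3:78597240-79767815, minus strand, GRCh38), was at 0, 0 and 2.13 normalized reads in the GOLPH3 libraries and at 2348, 1315 and 3419 in the Vector libraries. All 3 Vector libraries were thus far above all 3 GOLPH3 libraries, with 2 reads against 7465 in total. The ratio of Vector to GOLPH3 was 3771, with a 95% counting interval from 1044 to 31144 (exact, counting error only), and the fitted log2 fold change was -10.55 ± 0.56 (SE; adjusted p = 1.3e-06, limma). ROBO2, a paralogue on the same chromosome (chr3:75906695-77649964, plus strand), had no read in any GOLPH3 library and 99.8, 38.3 and 106 normalized reads in the Vector libraries, and was at least 25.3-fold lower against a limit of 3 reads per library (adjusted p = 5.52e-05). ROBO3, a divergent member that takes part in midline crossing of commissural axons, was at 213, 575 and 474 in the GOLPH3 libraries and at 438, 174 and 469 in the Vector libraries. Its groups overlapped and it did not pass (log2 fold change 0.23, 95% confidence interval -0.79 to 1.25, adjusted p = 0.846). Per exonic kilobase, ROBO1 made up 75.9% to 81.7% of the summed level of these 3 Robo receptors in the Vector libraries. ROBO3 made up 99.7% to 100% of that sum in the GOLPH3 libraries. ROBO4, from the list of other axon guidance genes, was left out of the sum. It was at 1.07, 266 and 22.4 normalized reads in the GOLPH3 libraries and at 71.0, 12.1 and 20.6 in the Vector libraries.

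Among the Slit ligands, SLIT2 was the most abundant in every library. It was at 219, 66.8 and 157 normalized reads in the GOLPH3 libraries and at 1173, 735 and 2471 in the Vector libraries (log2 fold change -3.28 ± 0.50, 9.68-fold lower, adjusted p = 0.00159). The lowest Vector library lay above the highest GOLPH3 library, and SLIT2 was still clearly detected in the GOLPH3 cells. SLIT3 was at 0, 2.47 and 0 against 61.8, 12.1 and 127, or 3 reads against 219 in total (ratio 73.8, 95% counting interval 24.9 to 360.4, adjusted p = 0.00424). Its call held with each library left out, except that without Vector library 3 the adjusted p was 0.0636 where a value of 1 was required in 2 libraries. SLIT1 was low in both groups, from 19.0 to 49.4 against 17.5 to 58.4, and did not pass (adjusted p = 0.935). In this ligand and receptor family SLIT2, SLIT3, ROBO1 and ROBO2 were thus lower, and SLIT1 and ROBO3 were not called.

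**Figure D2:**
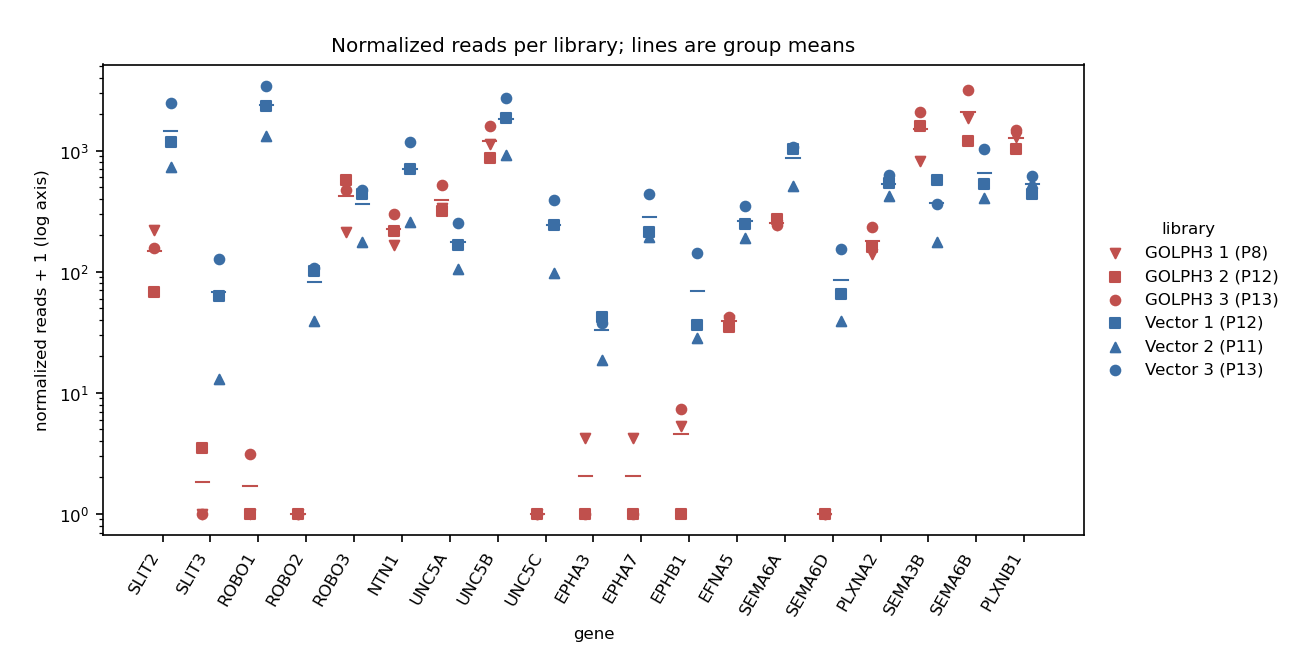
Normalized reads plus 1 (log axis) of 19 members in each library, with GOLPH3 libraries in red, Vector libraries in blue, the marker shape giving the P number and short lines the group means. In ROBO1 the Vector libraries lie between 1315 and 3419 and no GOLPH3 library exceeds 2.13, while the points of ROBO3 and UNC5B are intermixed.

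The start regions of called members are shown because the members at or under the detection limit in the GOLPH3 cells can be compared with a partly lowered and a raised one. Each window is RefSeq sequence of build GRCh38.p14, 250 bases before to 50 bases after 1 start site per gene, 5′ to 3′ on the gene's strand, with CG dinucleotides in capitals. Windows were given for 52 of the 58 members. ROBO1 (chr3:79767949-79768248, minus strand), UNC5C (chr4:95548924-95549223, minus strand), SEMA6D (chr15:47183839-47184138, plus strand) and EPHA7 (chr6:93419510-93419809, minus strand) were at the limit in the GOLPH3 libraries, EFNA5 (chr5:107670888-107671187, minus strand) was lower but present, and PLXNB1 (chr3:48430037-48430336, minus strand) was higher. The start sites used lay 12 to 233 bases from the outer start of the gene in GENCODE 29, and other start sites were not examined.
ROBO1: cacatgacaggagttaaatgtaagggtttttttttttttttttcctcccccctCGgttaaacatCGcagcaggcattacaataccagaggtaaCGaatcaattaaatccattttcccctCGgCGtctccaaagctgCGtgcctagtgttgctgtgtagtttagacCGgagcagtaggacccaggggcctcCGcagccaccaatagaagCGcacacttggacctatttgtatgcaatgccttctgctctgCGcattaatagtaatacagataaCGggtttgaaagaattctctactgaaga
UNC5C: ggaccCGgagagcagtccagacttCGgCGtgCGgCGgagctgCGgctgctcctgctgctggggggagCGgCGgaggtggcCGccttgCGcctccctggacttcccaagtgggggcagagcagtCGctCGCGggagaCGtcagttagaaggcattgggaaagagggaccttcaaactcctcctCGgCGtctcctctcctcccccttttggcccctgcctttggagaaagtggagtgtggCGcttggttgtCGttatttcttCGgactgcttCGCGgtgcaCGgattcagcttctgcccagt
SEMA6D: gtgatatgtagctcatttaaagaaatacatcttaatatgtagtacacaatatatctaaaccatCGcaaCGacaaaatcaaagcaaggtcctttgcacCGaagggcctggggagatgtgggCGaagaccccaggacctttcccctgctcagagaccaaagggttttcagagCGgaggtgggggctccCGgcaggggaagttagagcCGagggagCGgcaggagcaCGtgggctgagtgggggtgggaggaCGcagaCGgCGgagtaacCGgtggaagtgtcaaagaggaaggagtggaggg
EPHA7: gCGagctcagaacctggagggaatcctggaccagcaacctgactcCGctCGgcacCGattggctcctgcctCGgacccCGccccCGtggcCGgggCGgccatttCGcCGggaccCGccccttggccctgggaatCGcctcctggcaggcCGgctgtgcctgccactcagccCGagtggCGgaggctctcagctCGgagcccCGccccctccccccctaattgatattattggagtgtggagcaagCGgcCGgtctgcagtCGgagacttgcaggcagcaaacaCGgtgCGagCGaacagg
EFNA5: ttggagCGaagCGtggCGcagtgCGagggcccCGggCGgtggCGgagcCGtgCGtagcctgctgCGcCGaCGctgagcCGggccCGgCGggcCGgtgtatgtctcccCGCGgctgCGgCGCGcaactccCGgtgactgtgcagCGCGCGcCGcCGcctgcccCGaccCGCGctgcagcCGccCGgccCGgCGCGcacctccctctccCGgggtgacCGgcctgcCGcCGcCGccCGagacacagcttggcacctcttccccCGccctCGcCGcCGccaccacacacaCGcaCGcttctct
PLXNB1: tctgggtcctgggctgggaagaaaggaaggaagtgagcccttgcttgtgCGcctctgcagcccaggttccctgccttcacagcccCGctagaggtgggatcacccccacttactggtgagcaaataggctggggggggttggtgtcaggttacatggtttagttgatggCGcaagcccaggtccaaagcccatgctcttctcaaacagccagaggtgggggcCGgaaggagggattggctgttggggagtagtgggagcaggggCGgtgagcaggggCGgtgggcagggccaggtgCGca
These windows held 11 CG dinucleotides in ROBO1, 22 in UNC5C, 13 in SEMA6D, 24 in EPHA7, 47 in EFNA5 and 7 in PLXNB1, where the median over all 35116 windows was 14 (quartiles 4 and 28). The 11 lower members with a window ranged from 7 to 47 with a median of 22, and the 37 members tested and not called ranged from 2 to 54 with a median of 23. Motifs were searched as letters on both strands, and none of them overlaps another. CAGGTG, the E-box form bound by ZEB and SNAI repressors, was in 8 of the 52 windows and in 20.6% of all windows, and PLXNB1 was the printed window that held it. GGGCGG, the GC box, was in 38 of the 52 windows, in 6 of the 11 lower members, in 30 of the 37 members not called and in 45.0% of all windows. TATAAA was in 1 of the 52 windows, that of EFNB2, and in 11.5% of all windows.

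Semaphorins moved in both directions. Of 19 members, 18 were tested, 2 were higher and 2 were lower, and 14 did not pass. SEMA3B, a secreted semaphorin known as a candidate tumour suppressor of chromosome 3 (chr3:50267558-50277546), was at 821, 1580 and 2095 normalized reads in the GOLPH3 libraries and at 572, 175 and 362 in the Vector libraries (log2 fold change 2.07 ± 0.46, 4.20-fold, adjusted p = 0.0192). All GOLPH3 libraries were above all Vector libraries, and the call was lost without GOLPH3 library 3, without Vector library 3, and, with a value of 1 required in 2 libraries, without Vector library 2 (adjusted p up to 0.113). The other class 3 members did not pass. SEMA3A, SEMA3C and SEMA3F were between 128 and 953 normalized reads with overlapping groups, SEMA3E was between 20.8 and 47.2, and SEMA3D was at 82.7, 12.4 and 40.6 against 99.8, 176 and 103 (adjusted p = 0.139), where the groups did not overlap.

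Membrane-bound semaphorins of class 6, which bind class A plexins, held the lower semaphorins and a higher one. SEMA6D had no read in any GOLPH3 library and 64.8, 38.3 and 152 normalized reads in the Vector libraries, and was at least 26.4-fold lower (adjusted p = 8.34e-05). SEMA6A was at 244, 274 and 243 in the GOLPH3 libraries and at 1020.0, 512 and 1060 in the Vector libraries (log2 fold change -1.69 ± 0.34, adjusted p = 0.0116). The GOLPH3 values were close together and all under the lowest Vector value, but the call was lost without Vector library 1 or 3 (adjusted p up to 0.104). SEMA6B ran the other way, at 1865, 1197 and 3192 against 532, 408 and 1025 (log2 fold change 1.67 ± 0.42, 3.17-fold, adjusted p = 0.0406). The groups did not overlap, yet the call was near the threshold and was lost without GOLPH3 library 1 or 3 or without Vector library 1 or 2 (adjusted p up to 0.178), and also with quantile normalization (0.0554), with a pseudocount of 0.1 (0.0774) and with a value of 1 required in every library (0.0739). SEMA6C was between 197 and 436 in all libraries and did not pass (adjusted p = 0.994).

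SEMA7A, which is anchored to the membrane by a lipid and signals through integrins and PLXNC1, was at 551, 3514 and 2558 normalized reads in the GOLPH3 libraries and at 808, 255 and 378 in the Vector libraries. GOLPH3 library 1 lay below Vector library 1, so the groups overlapped, and the difference did not pass (log2 fold change 1.99 ± 0.61, adjusted p = 0.0952). Per exonic kilobase SEMA7A had the highest mean level of the membrane-bound semaphorins in the GOLPH3 libraries (581), a mean carried by GOLPH3 library 2 (925). In GOLPH3 libraries 1 and 3 SEMA6B was higher, at 423 against 145 and at 723 against 673. Within a library SEMA7A took from 7.32% to 42.7% of the level summed over the 19 semaphorin members, which leave out SEMA3G. Among the class 4 semaphorins, which bind class B plexins, SEMA4B was at 1525, 1617 and 2866 against 1066, 726 and 945, with groups that did not overlap and an adjusted p of 0.0794. SEMA4C, SEMA4D and SEMA4F were between 287 and 937 with overlapping groups, SEMA4A and SEMA5B were below 43 in every library, and SEMA4G was at 542, 244 and 573 against 166, 271 and 314 (adjusted p = 0.335). SEMA4G shares 22.3% of its exonic bases with the antisense gene MRPL43, and the strand setting of the counting is not given in the sources used here.

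**Figure D3:**
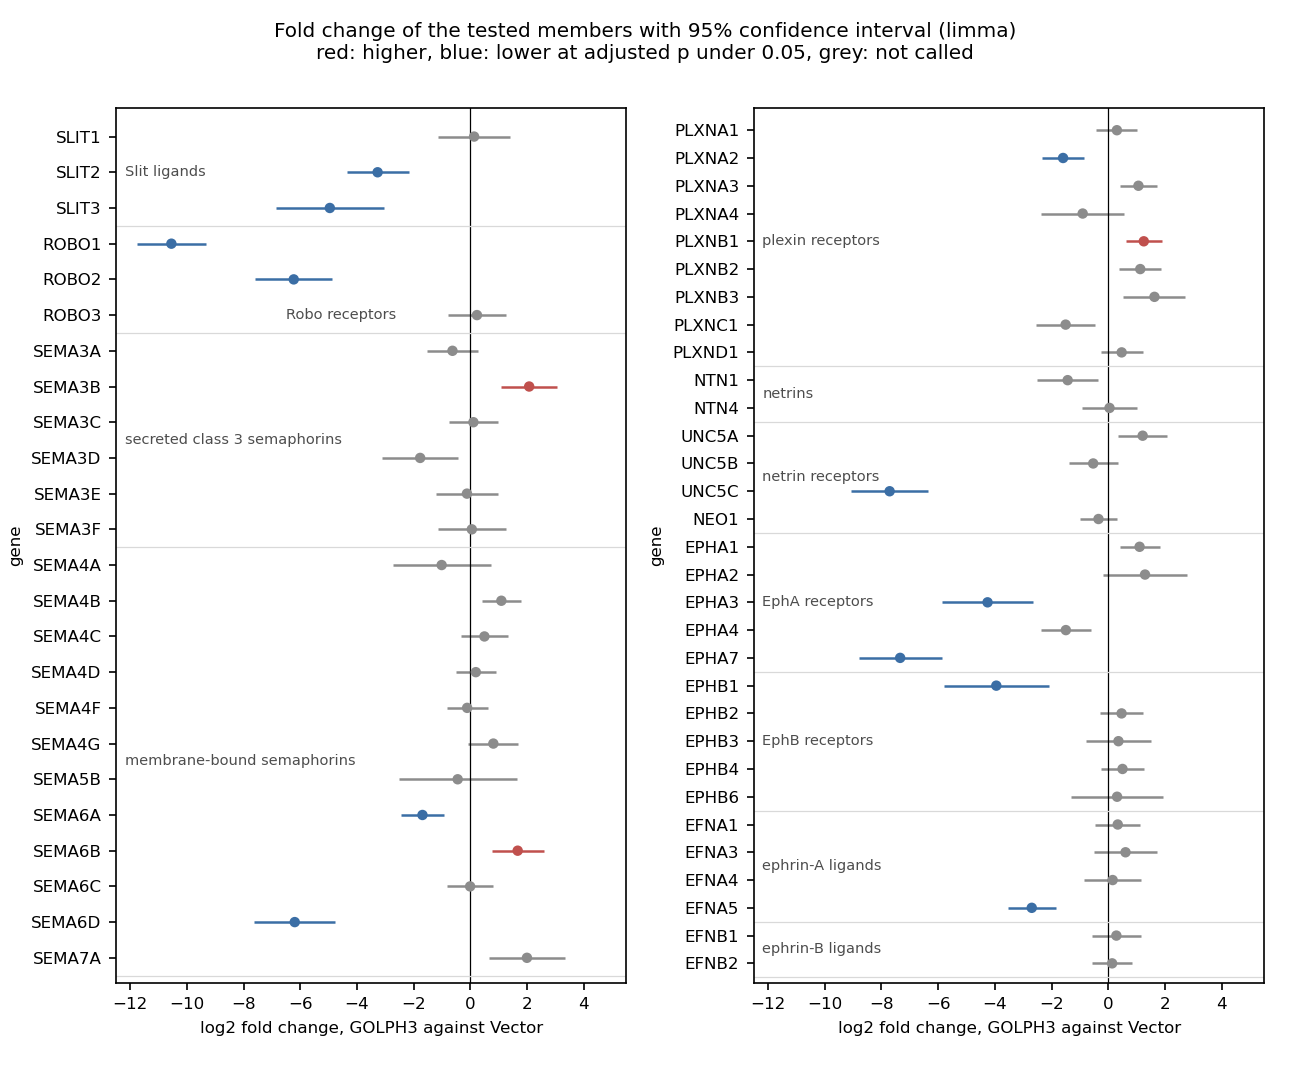
Fitted log2 fold change of the 55 tested members, GOLPH3 against Vector, with the 95% confidence interval from limma, ordered by role; red and blue points passed at an adjusted p under 0.05 and grey points did not. The 12 blue points lie between -10.55 and -1.59 and the 3 red points between 1.25 and 2.07. For members with no read in the GOLPH3 libraries the plotted value depends on the pseudocount of 1.

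Plexins, the semaphorin receptors, were all tested, and 1 was higher and 1 lower. PLXNB1, the receptor for SEMA4D (chr3:48403854-48430051, minus strand), was at 1305, 1031 and 1472 normalized reads in the GOLPH3 libraries and at 440, 537 and 619 in the Vector libraries (log2 fold change 1.25 ± 0.29, 2.38-fold, adjusted p = 0.0257). The groups were apart and the spread within each was small, but the call was lost without any 1 of the libraries other than GOLPH3 library 2 (adjusted p from 0.0526 to 0.190). PLXNA2, a receptor for class 6 semaphorins, was at 138, 157 and 234 against 535, 420 and 633 (log2 fold change -1.59 ± 0.34, 3.02-fold lower, adjusted p = 0.0149). Here too the groups did not overlap, and the call was lost without Vector library 1 or 3 (adjusted p up to 0.103). PLXNB2 was the most abundant plexin in every library, with 47.7% to 64.4% of the plexin level per exonic kilobase, and was at 7641, 10473 and 10587 against 5327, 2638 and 5777. It lay higher in all 3 GOLPH3 libraries without passing (log2 fold change 1.13 ± 0.34, adjusted p = 0.0891). PLXNA3 (2393, 2772 and 3106 against 1301, 957 and 1810) and PLXNB3 (97.7, 197 and 117 against 46.3, 21.9 and 71.2) were also apart in the upward direction, with adjusted p-values of 0.0709 and 0.0949. PLXNC1, at 51.5, 31.3 and 22.4 against 76.2, 148 and 78.1, was apart in the downward direction (adjusted p = 0.108). PLXNA1, PLXNA4 and PLXND1 overlapped between the groups. PLXNB3 shares 20.4% of its exonic bases with SRPK3 on the same strand.

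Of the netrin receptors, UNC5C alone passed. UNC5C, a dependence receptor whose silencing is known in colorectal cancer (ENSG00000182168, chr4:95162504-95549206, minus strand), had no read in any GOLPH3 library and 243, 96.4 and 388 normalized reads in the Vector libraries. It was at least 75.3-fold lower against the limit of 3 reads per library, or 0 reads against 776 (adjusted p = 1.14e-05). The other receptors did not pass. UNC5A was at 332, 317 and 519 against 165, 104 and 253, apart in the upward direction without passing (log2 fold change 1.21 ± 0.39, adjusted p = 0.112), and UNC5B, the most abundant of them by mean level per exonic kilobase, was at 1129, 862 and 1589 against 1865, 925 and 2719 with overlapping groups (log2 fold change -0.53 ± 0.40, adjusted p = 0.539). NEO1, neogenin, was between 853 and 1555 in all libraries and overlapped. DCC, the netrin receptor named for its deletion in colorectal cancer, was not detectable at this depth in 5 libraries and had 1 read in the sixth. NTN1, the principal netrin ligand, was at 164, 214 and 299 in the GOLPH3 libraries and at 701, 255 and 1167 in the Vector libraries. Vector library 2 lay below GOLPH3 library 3, and the difference did not pass (log2 fold change -1.43 ± 0.49, adjusted p = 0.137), although it did without Vector library 2 (log2 fold change -2.04). NTN4, a basement membrane netrin, was between 84.8 and 260 with overlapping groups (adjusted p = 0.977).

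Of the 10 Eph receptor members 3 were lower and 7 did not pass, and these 3 were minor ones by level. EPHA7 (chr6:93240020-93419547, minus strand) was at 3.22, 0 and 0 normalized reads in the GOLPH3 libraries and at 211, 193 and 438 in the Vector libraries, or 3 reads against 891 (ratio 300.1, 95% counting interval 102 to 1458, adjusted p = 2.85e-05). EPHA3 was at 3.22, 0 and 0 against 41.2, 17.5 and 36.9, or 3 reads against 99 (ratio 33.3, 95% counting interval 11.1 to 164, adjusted p = 0.00373). In both genes the single GOLPH3 library with reads was library 1, and for EPHA3 the adjusted p was 0.0556 without Vector library 3 where a value of 1 was required in 2 libraries. EPHB1 was at 4.29, 0 and 6.40 against 35.0, 27.4 and 141 (log2 fold change -3.95 ± 0.85, adjusted p = 0.0172), and its call was lost without Vector library 3 (adjusted p up to 0.144) and with a pseudocount of 0.1. EPHA4 was at 147, 74.2 and 82.2 against 247, 209 and 398, with groups apart and an adjusted p of 0.0558. It passed without a filter, with DESeq2, with the P number as a block, and without GOLPH3 library 1. It also passed without Vector library 2, but not where a value of 1 was then required in 2 libraries. EPHA1 was at 644, 545 and 1057 against 312, 328 and 364, apart in the upward direction (adjusted p = 0.0786).

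EPHA2 is an Eph receptor that is abundant in many epithelial tumours. In every library it took 58.8% to 94.4% of the level per exonic kilobase summed over the 10 Eph receptor members. The sum leaves out EPHA5, EPHA6, EPHA8 and EPHA10. EPHA2 was at 4766, 33095 and 15322 normalized reads in the GOLPH3 libraries and at 12892, 2219 and 5701 in the Vector libraries. The spread within each group was wide and the groups overlapped, with Vector library 1 above GOLPH3 library 1, and the difference did not pass (log2 fold change 1.30 ± 0.69, adjusted p = 0.365). With the P number as a block it passed (log2 fold change 1.39, adjusted p = 9.39e-08), in a fit that rests on the P12 and P13 pairs with 1 residual degree of freedom. In both groups the library with P number 12 was the highest. Within the pair of libraries with P number 12 the log2 difference was 1.36, and within the pair with 13 it was 1.43. EPHB4, the next most abundant Eph receptor in the mean of either group, was at 2154, 1672 and 3192 against 1453, 1139 and 2445 (adjusted p = 0.510). EPHB2 and EPHB3, which are Wnt targets of the intestinal crypt base, were between 362 and 867 and between 80.8 and 370, and EPHB6, which lacks kinase activity, was between 14.4 and 115. These 4 EphB receptors overlapped between the groups, with 95% confidence intervals that each included 0.

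**Figure D4:**
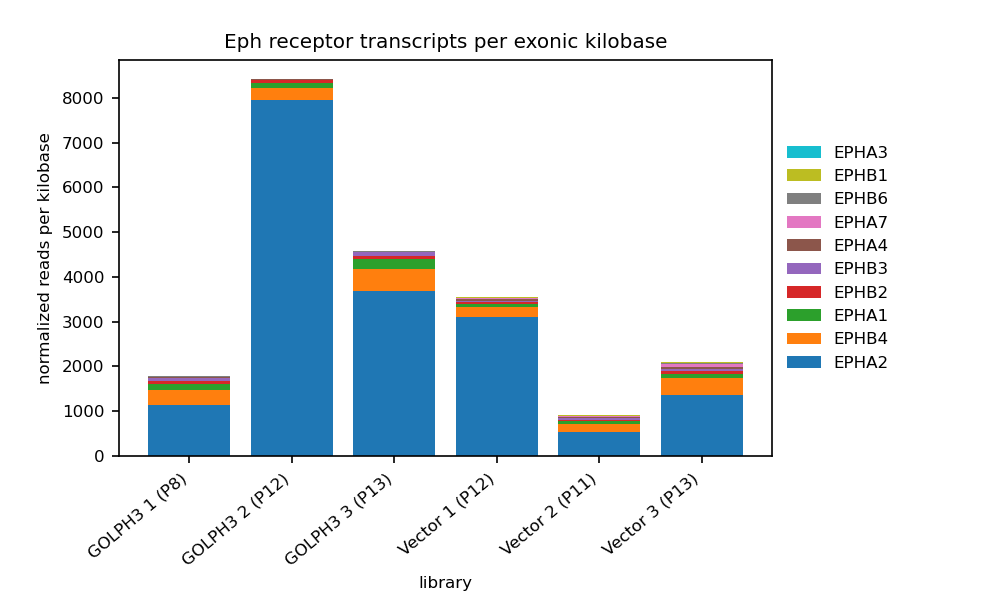
Stacked bars of the 10 Eph receptor members in each library, in normalized reads per exonic kilobase, on an axis that starts at 0. EPHA2 forms the lowest and largest segment in every library, and its height differed more between libraries of a group than the sum of the other 9 members did.

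Ephrin ligands showed 1 change among 6 members. EFNA5, a ligand for several EphA receptors including EPHA3 and EPHA7 (chr5:107376889-107670895, minus strand), was at 38.6, 33.8 and 41.6 normalized reads in the GOLPH3 libraries and at 246, 187 and 346 in the Vector libraries (log2 fold change -2.70 ± 0.39, 6.50-fold lower, adjusted p = 0.000991). The GOLPH3 values were close together, far below the lowest Vector value, and the call held under every alternative that was run. Of the level per exonic kilobase summed over these 6 ephrins, EFNA5 held 0.722% to 1.04% in the GOLPH3 libraries and 6.08% to 7.15% in the Vector libraries. The sum leaves out EFNA2 and EFNB3. EFNA2 was at 149, 123 and 268 per exonic kilobase in the GOLPH3 libraries and at 156, 87.7 and 144 in the Vector libraries. EFNA1, EFNA3 and EFNA4 overlapped between the groups, at 327 to 490 against 197 to 432, at 81.6 to 320 against 69.0 to 148, and at 68.4 to 186 against 77.2 to 145. The ephrin-B ligands EFNB1 (530, 614 and 1071 against 584, 364 and 906) and EFNB2 (780, 1408 and 867 against 1165, 771 and 801) did not pass either, with adjusted p-values of 0.761 and 0.870. EFNA3 shares 44.7% of its exonic bases with AL691442.1 on its own strand, a gene listed with no read in any library, and EFNB2 shares 26.2% with an antisense gene.

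The lower members had features in common that the rule did not use. In all 12 of them Vector library 2 was the lowest of the Vector libraries, and in 11 Vector library 3 was the highest. Over the 55 tested members, Vector library 2 was the lowest in 41 and Vector library 3 the highest in 41. The order was not counted over all genes tested, so a trait of the members and a tendency of the libraries cannot be told apart. Summed over the 7 members at the detection limit, the level was 2.13 to 6.44 normalized reads in the GOLPH3 libraries and 3069, 1710 and 4667 in Vector libraries 1, 2 and 3. Of 10 markers typical of HEK293-like cells, a human embryonic kidney line with neuronal traits, 9 were tested and 8 were lower in the GOLPH3 libraries. Over all genes tested, 4.12% were lower. IRS4, NEFM, UCHL1, HAND1, NEFL, CDH2 and LIN28B were under 1 normalized read in at least 1 GOLPH3 library. They needed the Vector group to enter the test, so the count of markers called is given as a description. The summed level of the 10 markers was 144 to 158 normalized reads in the GOLPH3 libraries and 8887, 5326 and 14176 in Vector libraries 1, 2 and 3. Across the Vector libraries that sum ran in the order of the summed members, but across the GOLPH3 libraries it did not. Single markers also differed. NEFL and NEFM were lowest in Vector library 1, VIM was highest there, and LIN28B was lowest in Vector library 3. In the GOLPH3 libraries IRS4, NEFM, UCHL1 and HAND1 had no read and 7 of the 10 were at or under 3 reads. PAX2 was present in both groups, at 134, 112 and 130 in the GOLPH3 libraries and at 104, 88.7 and 148 in the Vector libraries. It did not pass and carried most of the sum in the GOLPH3 libraries. INA was at or under 3 reads in all 6 libraries. The part of these markers in the lower members was not tested.

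Of 11 neuronal markers, 8 were tested and 1 was lower (GAP43), and ELAVL4, STMN2 and DCX were at or under 3 reads in every library. Of 9 fibroblast markers, 6 were tested and 1 was lower (PDGFRA), while COL1A2, DCN and FAP were at or under 3 reads throughout. GAP43 and PDGFRA, which were under 1 normalized read in every GOLPH3 library, entered the test only through the Vector group. Of 7 endothelial markers, TEK was at or under 3 reads in every library and none passed with limma, DESeq2 or edgeR or had an unadjusted p under 0.05 with limma. Colon epithelial markers had 2 higher members of 11 tested, KRT18 and KRT19. The summed level of the list was 79289, 62852 and 134429 normalized reads in GOLPH3 libraries 1, 2 and 3. It was 30045, 34755 and 41161 in Vector libraries 1, 2 and 3. SEMA3B, SEMA6B and PLXNB1 were also higher in the GOLPH3 group. SEMA3B did not follow that order of libraries in either group, and SEMA6B did not follow it in the Vector libraries. KRT8, KRT18 and KRT19 carried most of that sum, and not every marker of the list lay higher. CDX2 was at 247, 261 and 358 against 415, 184 and 897, and CEACAM6 was at 1.07, 0 and 5.34 against 19.6, 3.29 and 5.15, neither of which passed. The part of these markers in the higher members was not tested.

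Comparison within libraries of the same P number was possible for 12 and 13. The log2 difference had the same sign within both pairs in 46 of the 55 tested members and opposite signs in 9. All 15 called members were among the 46, which was fixed in advance because their groups did not overlap. ROBO1 was at -11.20 and -10.09, SLIT2 at -4.11 and -3.97, EFNA5 at -2.83 and -3.02, SEMA3B at 1.46 and 2.53, and PLXNB1 at 1.23 and 1.25. Each pair has 1 library a group, so these values have no replicate check. In 27 members the P13 library was the highest of both groups, and in 5 (EPHA2, SEMA7A, PLXNA4, NTN4 and EFNB2) the P12 library was. These counts, and that of 46, were not made over all genes tested.

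**Figure D5:**
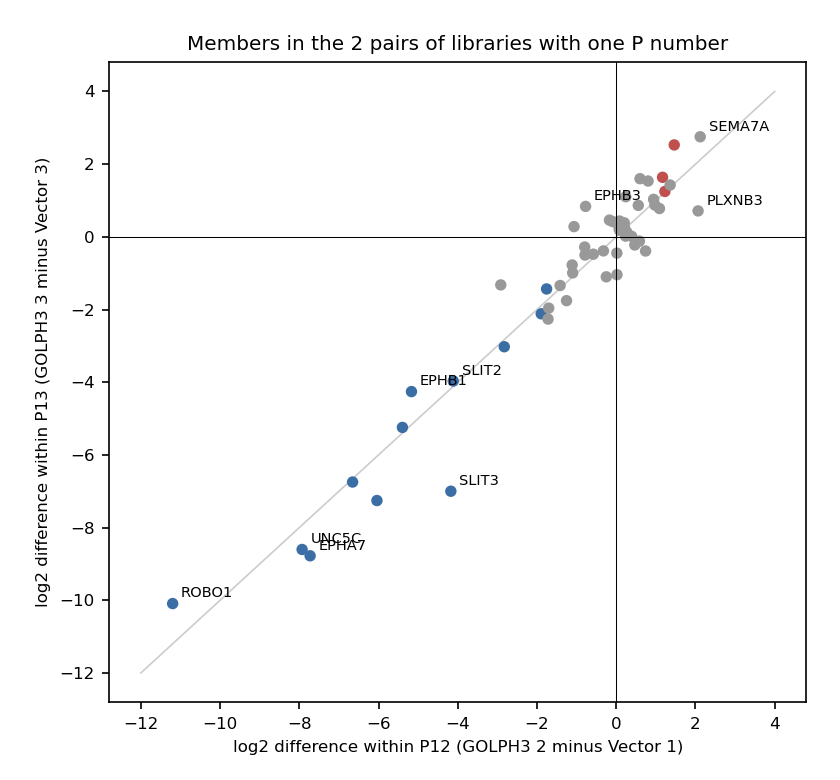
Log2 difference between the GOLPH3 and the Vector library of P number 12 (horizontal) and of P number 13 (vertical) for the 55 tested members; blue and red points are members called lower and higher over all 6 libraries, grey points were not called, and the grey line marks equal differences. All 15 called members must lie in the quadrants where both pairs have the same sign, because their groups do not overlap. EPHB3 is 1 of the 9 with opposite signs.

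Other genes of axon guidance were followed in a list of 99, of which 94 were tested, 3 were higher and 9 were lower (12.8% called, beside 5.07% of all genes). The count of 12 was 4 without Vector library 1 and 3 without Vector library 3 (8 and 5 where a value of 1 was required in 2 libraries). EPHA5, EPHA6, FLRT2 and PAK3 had no read in any GOLPH3 library and entered the test only through the Vector group. NRCAM and CRMP1, without a read in 1 GOLPH3 library, also needed the Vector group, so these counts are given as a description. Among the 21 tested ligands and receptors of this list, 1 was higher and 6 were lower. EPHA5, a further EphA receptor, had no read in the GOLPH3 libraries and 43.2, 19.7 and 58.4 normalized reads in the Vector libraries, and was at least 12.6-fold lower against 3 reads per library. FLRT2, a membrane protein that binds UNC5 receptors, also had none against 166, 86.5 and 166, and was at least 43.3-fold lower. NRCAM, a neural cell adhesion molecule that binds neuropilin, was at 0, 1.65 and 2.13 against 167, 110 and 211 (adjusted p = 4.26e-05). The other called members of this class were EPHA6, FLRT3 and EFNB3, which were lower, and L1CAM, which was higher at 568, 1046 and 1116 against 329, 219 and 324.

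Of the downstream effectors 5 passed, a share of 4.35% of Robo and netrin effectors, 7.69% of plexin effectors and 8.33% of Eph effectors, close to the 5.07% of all genes. Of 23 Robo and netrin effectors, PAK3, a Rac-activated kinase, passed, with no read in the GOLPH3 libraries and 20.6, 14.2 and 34.3 normalized reads in the Vector libraries. Of 26 plexin effectors, MICAL1, an actin-oxidizing enzyme, was higher (1088, 1331 and 1521 against 662, 559 and 612, adjusted p = 0.042) and CRMP1, a collapsin response mediator, was lower (1.07, 3.30 and 0 against 52.5, 17.5 and 110, adjusted p = 0.00394). Of 24 Eph effectors, RGS3, which binds ephrin-B, was higher (625, 974 and 779 against 304, 356 and 310, adjusted p = 0.0274) and CHN1, a Rac GTPase-activating protein downstream of EPHA4, was lower (82.7, 94.0 and 56.6 against 248, 227 and 228, adjusted p = 0.021). In each of these effectors the 3 libraries of a group lay on 1 side of the other group. The MICAL1 call was lost without any 1 of the libraries other than GOLPH3 library 1 (adjusted p up to 0.190) and with a value of 1 required in every library (0.0671), the RGS3 call without GOLPH3 library 2 or 3 or Vector library 1 or 3 (up to 0.167) and with a value of 1 required in every library (0.0531), and the CHN1 call without GOLPH3 library 3 or Vector library 1 or 3 (up to 0.145). With a value of 1 required in 2 libraries, RGS3 and CHN1 were also lost without Vector library 2. ABLIM3, TRIM9, DPYSL5 and CHN2, which had the next smallest p-values in their classes, did not pass (adjusted p = 0.115, 0.0881, 0.0834 and 0.0614).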

How the data were processed

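Novogene sequenced RNA of 6 HCT-116 cultures, 3 with PMSCV-GOLPH3 and 3 with PMSCV-Vector. The submitters' processing notes name fastp 0.20.0, HISAT2 2.1.0, featureCounts 1.6.1, DESeq2, Cufflinks and GRCh38, without roles. The strand setting and annotation are not given in the sources used here. The deposited signal is a normalized value per gene and library: 100% of the values were whole multiples of 1 step per library (tolerance 0.01), so the authors divided read counts by a size factor, and reads were recovered from the steps. Values have no correction for gene length, and levels were divided by exonic length where genes were compared. No 2 libraries of a group agreed within sampling noise.

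limma 3.58.1 (R 4.3.3, trended prior variance) was fitted to log2(value + 1) of the 26536 genes that reached 1 normalized read in 3 or more libraries, with Benjamini-Hochberg adjustment over all of them. The scripts were tested on simulated data. Fold changes are on the log2(value + 1) scale, which understates the change of low genes. Coordinates come from GENCODE 29. Intervals for ratios of reads cover counting error only. Same-numbered replicates did not deviate together, so no block was used. The genes named are the members that passed, those at the detection limit in 1 group and at 50 or more normalized reads in the other, the most abundant and the smallest p of each role, and the 3 smallest p of each class of other pathway genes; further members are given as values. The members and lists were chosen with earlier results of these data known. Alternatives were quantile normalization, other filters, a pseudocount of 0.1, DESeq2 1.42.0 and edgeR 4.0.16 on the recovered reads, the replicate and P numbers as blocks, and each library left out.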

Additional observations from a re-analysis of the deposited data

How the results depend on the processing

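With a value of 1 required in every library, which removes the members without reads in the GOLPH3 libraries, 405 genes, 6 members and 4 other pathway genes passed. DESeq2 on the recovered reads called 23 members (all 15 of limma and 8 more, 8 higher and 15 lower in all) and 19 other pathway genes, and edgeR called the same 15 members as limma. The 8 further members with DESeq2 were EPHA1, EPHA4, NTN1, PLXNA3, PLXNB3, PLXNC1, SEMA4B and SEMA7A. With the P number as a block 6082 genes, 30 members and 41 other pathway genes passed, but that fit rests on the P12 and P13 pairs with 1 residual degree of freedom. Leaving out each library in turn gave 459 to 1528 genes, 7 to 16 members and 3 to 17 other pathway genes. Without Vector library 1, 2 or 3 the members ROBO2, UNC5C and SEMA6D left the test. Requiring a value of 1 in 2 libraries, an alternative chosen after seeing the data, kept them, with 11, 13 and 8 members, 837, 1237 and 717 genes and 8, 9 and 5 other pathway genes called. Same-numbered replicates had correlations of -0.232, -0.151 and 0.259, so the numbers were not taken to pair the samples. Pairs with the same P number had 0.256 (P12) and 0.259 (P13), and GOLPH3 library 1 and Vector library 2, which share neither number, had 0.331. The replicate block gave 1081 genes and 14 members, the calls of SEMA3B (adjusted p = 0.0526) and of MICAL1 (0.0745) being lost, and not every sample correlated best with its own number. No called member changed sign under any alternative. EFNB1, which was not called, reversed to -0.017 without GOLPH3 library 3 and to -0.048 without Vector library 2, and ranged up to 0.61 with other libraries left out. The median over the members lay between -0.12 and 0.31 with a library left out. SLIT2, EFNA5, ROBO1 and EPHA7 were called wherever they were tested. So were ROBO2, SEMA6D and UNC5C, which were tested in fewer alternatives (13 each, against 17 for SLIT2). The count of members whose groups did not overlap has no separate value under another pseudocount, test or block.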
